A study of Homo sapiens with 20 samples.

Results

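The genes of 5 transcription factors that drive epithelial-mesenchymal transition (EMT), TWIST1, SNAI1, SNAI2, ZEB1 and ZEB2, were examined for H3K27ac, an acetylation of histone H3 that marks active enhancers and promoters. Each gene was represented by a fixed hg19 window around it, and every listed H3K27ac peak that overlapped a window was a member. The windows spanned chr7 18.90 to 19.25 Mb for TWIST1 (350 kb), chr20 48.55 to 48.70 Mb for SNAI1 (150 kb), chr8 49.70 to 50 Mb for SNAI2 (300 kb), chr10 31.50 to 31.90 Mb for ZEB1 (400 kb) and chr2 145.00 to 145.45 Mb for ZEB2 (450 kb). They held 196 of the 458811 peaks in all lists, or 0.0427%. The windows are defined by position alone, though they were picked with earlier results of these data known, and a peak in a window was not assigned to the gene the window is named for.

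Peaks came from G401, a human rhabdoid tumour cell line with the genotype SMARCB1(-/-). SMARCB1 is a core subunit of SWI/SNF, the complexes that move nucleosomes with energy from ATP. In 1 group doxycycline induced GFP, the control, and in the other it induced SMARCB1, so both groups carried the SMARCB1 loss and received doxycycline. Each group had 2 H3K27ac libraries (n = 2), and the comparison asked how the acetylation of these cells differs once SMARCB1 is present. The chromatin was cut with an enzyme, micrococcal nuclease per the design text, and precipitated with a rabbit monoclonal antibody. The labels gave no dose, no time, no clone and no statement that replicates came from separate cultures. The p-values below therefore measure the spread between these libraries, which may be technical. H3K4me3, H3K4me1, SMARCA4 and input samples were not analysed here, and peak lists hold no expression, so the induction of SMARCB1 was not checked.

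EMT factors switch off genes that hold epithelial cells together and switch on a mesenchymal programme. SNAI1 (Snail) and SNAI2 (Slug) are zinc-finger repressors, and ZEB1 and ZEB2 are zinc-finger homeobox repressors; all of them bind E-boxes, for example in the promoter of the epithelial cadherin gene CDH1. TWIST1 is a basic helix-loop-helix factor of mesoderm and neural crest that also binds E-boxes. ZEB1 and ZEB2 are held down by the miR-200 family of microRNAs, and the ZEB factors in turn repress the miR-200 genes. Rhabdoid tumours are poorly differentiated, and many of them express mesenchymal genes.

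RefSeq promoter sequences (GRCh38.p14) matched 2 of the 5 genes, ZEB1 and ZEB2. The 250 bases before a listed start are printed because strong peaks kept their place in the ZEB1 window, because ZEB1 promoters held the E-box these factors bind, and to set ZEB2, its paralogue, beside it. Capitals mark the E-box, searched as CACCTG and as its reverse complement CAGGTG, which covers both strands. The sequences are in 5′ to 3′ order on the gene's strand. The first is ZEB1, the first of 7 listed starts (GRCh38.p14, chr10:31318167-31318416, plus strand). The second is ZEB2 (GRCh38.p14, chr2:144520120-144520369, minus strand).
ZEB1: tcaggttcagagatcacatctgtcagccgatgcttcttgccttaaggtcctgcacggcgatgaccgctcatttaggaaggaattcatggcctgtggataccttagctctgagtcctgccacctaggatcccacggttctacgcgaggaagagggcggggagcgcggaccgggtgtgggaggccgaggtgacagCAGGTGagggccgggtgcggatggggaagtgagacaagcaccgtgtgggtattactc
ZEB2: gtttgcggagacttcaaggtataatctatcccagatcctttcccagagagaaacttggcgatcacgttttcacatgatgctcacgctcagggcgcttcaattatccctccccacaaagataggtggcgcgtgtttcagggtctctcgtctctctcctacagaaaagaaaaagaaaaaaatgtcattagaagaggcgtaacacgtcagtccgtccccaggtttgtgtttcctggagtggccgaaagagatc

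The ZEB1 stretch held 1 E-box, its first base at -57 from the start, and 15 CpG dinucleotides at 59.2% GC. A further ZEB1 start, the third of the 7, had E-boxes at -242 and -85, and the other 5 starts had none in this span. The ZEB2 stretch held 0 E-boxes and 12 CpG at 48% GC. Across 35116 RefSeq promoters, 17.5% held an E-box in the same 250 bases, and the median was 11 CpG. More CpG than in 57.1% and 51.5% of promoters placed the printed ZEB1 and ZEB2 stretches near the middle. Over the 7 ZEB1 starts, CpG ran from 7 at the seventh to 27 at the fourth, more than in 41.1% and 82.3% of promoters. These sequences are on another build than the peaks, so no peak coordinate was laid over them, and a match in the letters says nothing of which factor is bound.

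Read totals were not given in the files, so depth was judged from the background, in fragments, that the authors' fold enrichment and p-value of a peak imply. It was lowest, 1.82 fragments, in GFP replicate 1, against 3.74 in the other GFP library and 4.78 and 3.89 in the SMARCB1 libraries. The list of SMARCB1 replicate 1 had been scaled by 0.855, which makes its background 4.09 in the authors' fold and wherever a local background is given. Because depth differed, summit fragments were also divided by the library's background on the same scale. Fold enrichment is the authors' ratio of the summit over the background at that peak, here called the local background. The local background can be higher than the library's, so the 2 measures can differ. The median fold of the lists was between 3.68 and 4.6, highest in GFP replicate 1, where the background was lowest. The lists ran from 79555 to 145533 peaks, and the SMARCB1 lists were the longer ones. The lowest p that exact two-sided permutation can give with 2 libraries per group is 0.333, so no difference here could reach significance in it. A list peak also had to pass a filter whose rule is not given in the sources used here.

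The 5 windows fell into 3 kinds, which the plot of peak number and covered length shows. No library listed a peak in the TWIST1 or the SNAI2 window. The ZEB1 window had a few strong peaks at fixed places and the ZEB2 window a single strong region. Neither window had more than 8 peaks in any library. The SNAI1 window held most members, with 43, 30, 54 and 39 peaks in GFP replicates 1 and 2 and SMARCB1 replicates 1 and 2, the order of libraries kept throughout. By library, the 5 windows together held 52, 36, 63 and 45 peaks. The libraries of the 2 groups overlapped in covered length in the SNAI1, ZEB1 and ZEB2 windows.

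**Figure D1:**
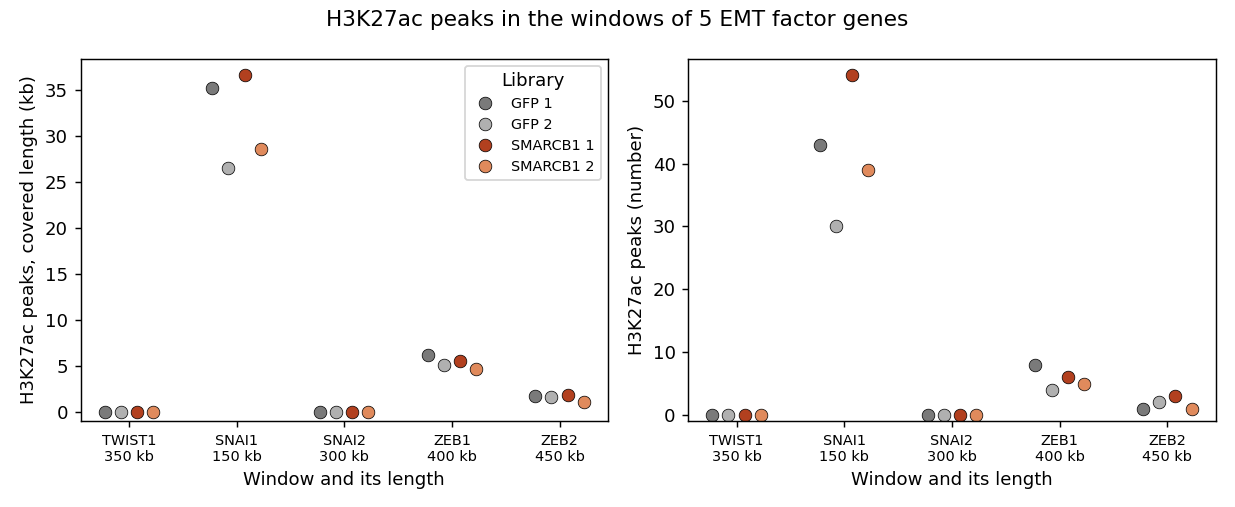
Length covered by H3K27ac peaks (kb, left) and number of peaks (right) in each window, 1 point per library, with the window's length under its name. TWIST1 and SNAI2 sit at 0 in all 4 libraries, and the GFP and SMARCB1 points overlap in the SNAI1, ZEB1 and ZEB2 windows.

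Overlapping peaks of the 4 libraries were merged into 78 regions, 66 in the SNAI1 window, 10 in that of ZEB1 and 2 in that of ZEB2. A region counted as gained if it had peaks from both SMARCB1 libraries and none from the GFP libraries; a lost region was the reverse. The members held 4 gained regions of 78, or 5.13%, against 17.5% of all 167933 merged regions of the genome. They held 1 lost region, or 1.28%, against 3.94% genome-wide. Peaks in all 4 libraries were found in 15 regions, or 19.2%, against 16.7%. All 5 gained and lost regions were in the SNAI1 window. A peak in only 1 library accounted for 41 of the 78 regions. The genome share of such regions was not computed, so neither this count nor those by window below can be called high or low.

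TWIST1, which had no listed peak, lay in a peak-free stretch in both groups. The nearest peak on the lower-coordinate side ended at 18610644 and 18561066 in the GFP libraries, 289 and 339 kb from the window. In the SMARCB1 libraries it ended at 18707800 and 18707897, 192 kb away in each. Listed acetylation thus came closer to the window in both SMARCB1 libraries. The 100 kb bin that held these ends had 1 peak in each SMARCB1 library and 0 in the GFP libraries. The SMARCB1 lists were also the longer ones, and the effect of list length on this distance was not tested. The genome share of windows with a nearest peak closer in both SMARCB1 libraries was not computed, so this cannot be called particular to TWIST1. The lower-side neighbour of TWIST1 in RefSeq gene order is HDAC9, a histone deacetylase gene whose introns are known to hold TWIST1 enhancers; none of these peaks was placed in a gene here.

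On the higher-coordinate side the nearest peak began 498, 498, 497 and 496 kb from the TWIST1 window. The peak-free interval around the window was 1137, 1187, 1039 and 1038 kb long, shorter in both SMARCB1 libraries, which had the longer lists. How often such intervals were shorter in both SMARCB1 libraries was not computed. Intervals without a peak in any library are common: 46.6% of genome windows of 350 kb had none. The interval shared by all 4 libraries, chr7:18707898-19746353, was 1.04 Mb, the 517th longest of 167909, and intervals at least as long made up 42.4% of the genome.

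SNAI2 also had no listed peak, and its surroundings were emptier and were alike in the 2 groups. In every library the nearest peaks lay 272 kb to the lower side and 2809 or 2810 kb to the higher side. The lower peak ended at 49427570, 49427530, 49427570 and 49427604. The peak-free interval was 3382 kb in each library. Over all 4 it was chr8:49427605-52809213, 3.38 Mb and the 94th longest, with 17.3% of the genome in intervals at least as long. In the genome, 48.9% of windows of 300 kb had no peak in any library. The covered length was 0 in both groups for TWIST1 and SNAI2, so the difference was 0. A gene without a listed peak is not shown to be without acetylation, since only peaks past the authors' threshold and filter were listed.

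**Figure D2:**
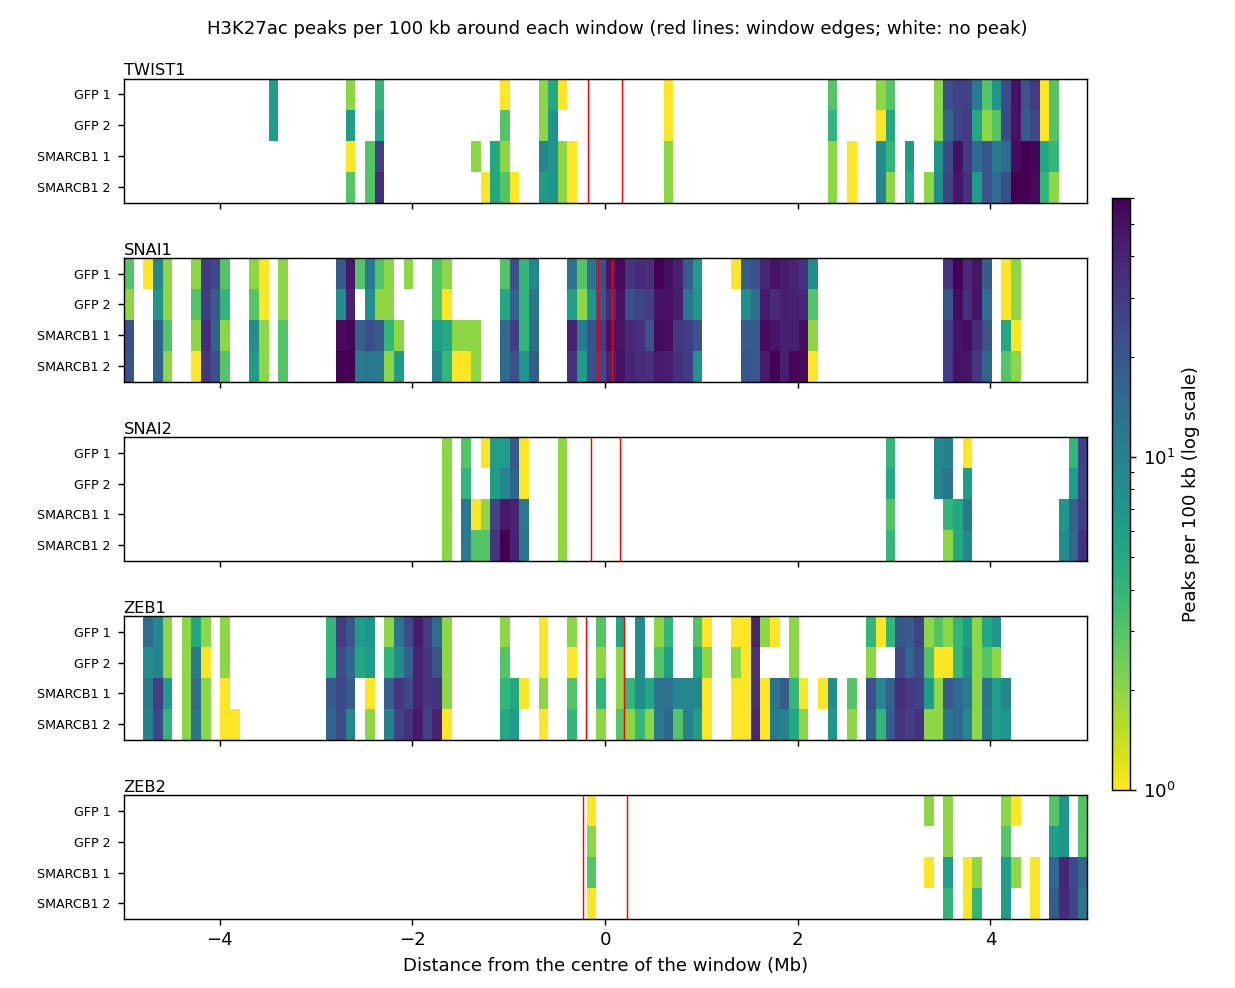
H3K27ac peaks per 100 kb (colour, log scale) by distance from the centre of each window (Mb), 1 row per library, with red lines at the window edges and white for no peak. The TWIST1 and SNAI2 windows are white in every row, SNAI1 lies in a dense stretch, and the ZEB2 window holds a lone column of peaks.

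SNAI1, which encodes the Snail repressor, lay in the window with the most listed acetylation. Its next genes in RefSeq order are RNF114 and SPATA2 on the lower side and the overlapping PEDS1-UBE2V1 and UBE2V1 on the higher side, and peaks of the window were not divided among them. Peaks covered 35.2, 26.5, 36.6 and 28.6 kb of its window, which was 23.4%, 17.6%, 24.4% and 19.1%, against 2.92%, 2.7%, 4% and 3.31% of the genome. In each library this exceeded between 94.7% and 96.4% of genome windows of the same length. Replicate 1 was higher than replicate 2 in both groups, and the groups overlapped. Genome-wide, both SMARCB1 libraries covered more than both GFP libraries in 21.8% of windows of 150 kb and less in 7.74%. The GFP mean was 30.8 ± 6.15 kb and the SMARCB1 mean 32.6 ± 5.69 kb (SD, n = 2 each). The difference of 1.78 kb was smaller than either SD (exact two-sided permutation p = 0.667). The number of peaks, 36.5 ± 9.19 against 46.5 ± 10.6 (SD, n = 2 each), differed by 10 with the same exact permutation p of 0.667.

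That small difference depended on the length of the lists and on single libraries. With each list cut to the strongest 79555 peaks by p-value, the SNAI1 window was covered over 32, 26.5, 25.4 and 23.7 kb, lower in both SMARCB1 libraries (exact permutation p = 0.333, the lowest possible), as were 12% of genome windows of that length. With full lists and 50 kb added on each side of the window, it was 70.6, 60.2, 88.9 and 72.7 kb, higher in both SMARCB1 libraries, as in 26.2% of windows of that widened length. Without GFP replicate 2 the difference became -2.56 kb, and without SMARCB1 replicate 1 it became -2.24 kb.

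The widest region of the SNAI1 window was mostly a single very wide peak. By general knowledge of hg19, and not from the files, it covers the SNAI1 gene from about its start. The peak was 8602, 8773, 9016 and 9037 bp wide, wider than 99.1%, 98.8%, 99.5% and 99.7% of the peaks of its list. Its lower edge lay between 48599537 and 48599581, a spread of 44 bp over the 4 libraries, and its upper edge had a spread of 479 bp. The fold at its summit was 16.6, 10.8, 11 and 12.7, from 57, 56, 89 and 61 fragments, so the groups overlapped in fold. Over the library's background the fragments were 31.3, 15, 18.6 and 15.7, which also overlapped. The summit itself moved: it was at 48606058 in GFP replicate 1 but at 48599764, 48599769 and 48600073 in the other 3 libraries. The merged region, chr20:48599537-48609585 and 10049 bp long, was both the widest of the window and the one with the highest mean fold, 12.8. In GFP replicate 2 and SMARCB1 replicate 1 the highest fold of the window was elsewhere, 11.2 and 11.6.

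Acetylation just below the start of that wide peak was narrower and lower in the SMARCB1 libraries; this place was singled out after its values had been seen. In the adjoining region, chr20:48597460-48599426, peaks covered 1927, 1662, 788 and 431 bp. Fold there was 12.8, 9.5, 4.61 and 3.79. Both measures were lower in both SMARCB1 libraries, with no overlap. The summit had 35, 44, 42 and 28 fragments, which over the library's background made 19.2, 11.8, 8.79 and 7.2, lower in both SMARCB1 libraries as well. The local background was 1.82, 3.74, 7.0 and 6.64 fragments, or 1, 1, 1.71 and 1.71 over the library's background, higher in both SMARCB1 libraries. The part of the local background in the lower fold was not tested.

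**Figure D3:**
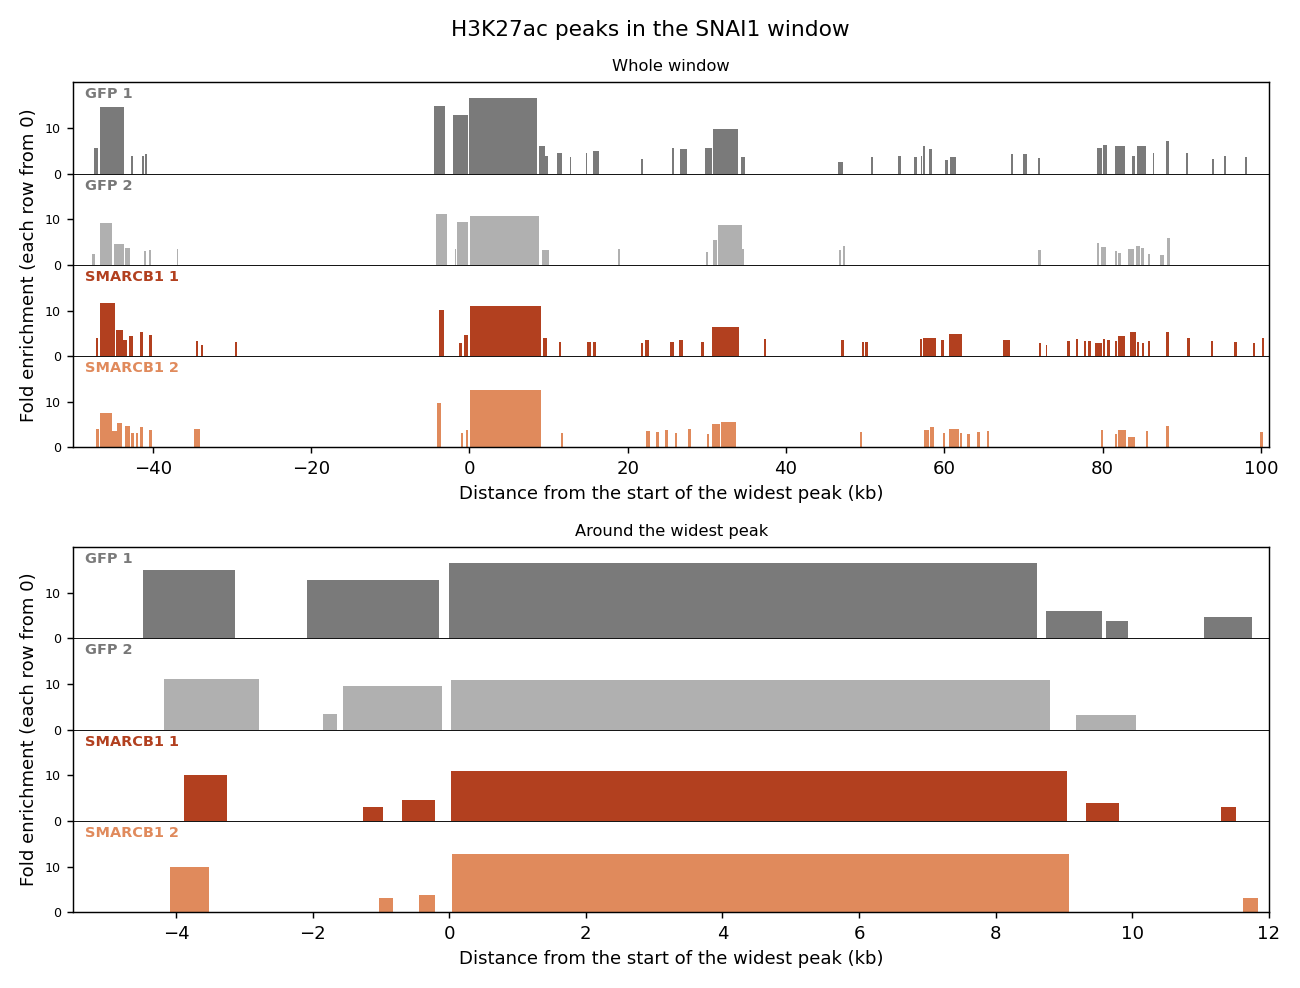
H3K27ac peaks in the SNAI1 window (top) and around its widest peak (bottom), with distance from the start of the widest peak in kb and each library's fold enrichment drawn from 0 in its own row. The widest peak keeps its left edge within 44 bp, and the peaks just left of it are narrower in both SMARCB1 rows.

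The peak next to the widest one showed how it was split. It was 1 peak of 1927 bp in GFP replicate 1 and a pair of 210 and 1452 bp in GFP replicate 2. In the SMARCB1 libraries it was a pair of 304 and 484 bp and a pair of 208 and 223 bp. The gap between it and the wide peak was 150, 135, 229 and 257 bp, wider in both SMARCB1 libraries. The genome share of gaps that differ so was not computed. The next region down, chr20:48595058-48596752, had covered lengths of 1349, 1387, 623 and 565 bp, again lower in both SMARCB1 libraries. Its fold was 14.9, 11.2, 10.1 and 9.82, and its fragments over the library's background were 22.5, 15.5, 12.3 and 12.1, both lower in both SMARCB1 libraries. This region and the next 2 were also chosen after their values had been seen.

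Away from the gene, a region at chr20:48629275-48634294 was covered over 4438, 3984, 3350 and 3176 bp with a fold of 9.73, 8.75, 6.41 and 5.53. Both were lower in both SMARCB1 libraries. At the other end of the window, chr20:48552839-48557132 was covered over 3355, 3368, 3755 and 3608 bp, higher in both SMARCB1 libraries, while its fold of 14.6, 9.13, 11.6 and 7.57 overlapped. Within the same 150 kb, regions thus differed in the direction of covered length only.

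Of the 10 SNAI1-window regions with a peak in all 4 libraries, fold was lower in both SMARCB1 libraries in 5 and overlapped in 5. Covered length was lower in 5, higher in 2 and overlapping in 3, and both measures were lower in 3. Over the 15 such regions of all windows, fold was lower in 6, higher in 0 and overlapping in 9, and covered length was lower in 8, higher in 2 and overlapping in 5. Genome-wide, fold was lower in both SMARCB1 libraries in 40.4% of the 27997 regions with peaks in all 4 libraries and higher in 10.2%. For covered length these shares were 28.9% lower and 30.3% higher, and both measures were lower in 19.4%. Fragments over the library's background were lower in both SMARCB1 libraries in 9 of the 15 and higher in 0, against 46.3% and 4.65% genome-wide. A lower fold was therefore also the commoner direction in the genome as a whole, where GFP replicate 1 had the lowest background.

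The gained regions of the SNAI1 window were weak and narrow. The 3 with the highest lower fold were chr20:48621767-48622309 (3.55 and 3.68 in SMARCB1 replicates 1 and 2), chr20:48699374-48699911 (3.89 and 3.48) and chr20:48564755-48565549 (3.39 and 4). The fourth was chr20:48648911-48649343, with 3.22 and 3.48. These folds lay near the median fold of their lists, 3.72 and 3.68. The median width of the gained regions was 540 bp, against 1870 bp for the regions shared by all 4 libraries in this window. Peaks of the GFP libraries were close by, at a median distance of 984 bp and at most 1980 bp.

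The lost region, chr20:48558437-48558794, had folds of 4.25 and 3.04 in the GFP libraries. A peak of a SMARCB1 library lay only 68 bp from it. With lists cut to equal length there were 0 gained regions. Single-library regions made up 35 of the 66 in the SNAI1 window, 10, 3, 14 and 8 by library, and GFP replicate 2, with the shortest list, had the fewest. The base-pair Jaccard index of the peaks in this window was 0.542 between the GFP libraries and 0.533 between the SMARCB1 libraries, and 0.452 to 0.511 between groups.

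ZEB1, the repressor best known for shutting off CDH1 and the miR-200 genes, had 8, 4, 6 and 5 peaks, and its strong peaks sat in the same 2 places in all 4 libraries. Peaks covered 6.18, 5.16, 5.56 and 4.73 kb of the window. Replicate 1 was again the higher in both groups, and the groups overlapped, whereas 30.7% of genome windows of 400 kb were covered more, and 9.8% less, in both SMARCB1 libraries. The GFP mean was 5.67 ± 0.723 kb and the SMARCB1 mean 5.15 ± 0.589 kb (SD, n = 2 each), a difference of -0.526 kb (exact two-sided permutation p = 0.667). With lists of equal length the values were 5.78, 5.16, 5 and 4.73 kb, lower in both SMARCB1 libraries (exact permutation p = 0.333), as in 15.5% of genome windows of 400 kb. Of the 10 regions, 4 had a peak in all 4 libraries, 5 in a single library, and 0 were gained or lost.

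The 4 shared regions are described in turn; the widest and the one of highest mean fold were set by rule and the other 2 complete the count. The first place was a pair of peaks with a narrow gap between them. By general knowledge of hg19, it brackets the start of ZEB1 and of the divergent transcript ZEB1-AS1. In the authors' tables of stitched regions, whose headers restrict them to peaks distal to transcription start sites, these peaks were left out in every library, as were 13.5% to 22.7% of all peaks of a list. The gap measured 175, 140, 162 and 181 bp. The start of the second peak lay between 31608138 and 31608143, a spread of 5 bp over the 4 libraries, and the end of the first had a spread of 36 bp.

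Fold in the first peak of the pair, chr10:31606773-31607997, was 14.6, 10.1, 11.6 and 9.82, from 62, 69, 68 and 47 fragments. It was 1101, 1225, 1042 and 947 bp wide, narrower in both SMARCB1 libraries. The second peak, chr10:31608138-31610224, the widest region of the window, had a fold of 17.8, 5.98, 12.6 and 9.4 from 61, 61, 74 and 53 fragments, with the groups overlapping. The local background of this peak was 2.49 fragments in GFP replicate 1 and 9.37 in GFP replicate 2. Divided by the library's background, these were 1.37 and 2.51. Over the library's background, the fragments of the first peak were 34.1, 18.4, 14.2 and 12.1. Those of the second peak were 33.5, 16.3, 15.5 and 13.6. On this measure both peaks were lower in both SMARCB1 libraries, while GFP replicate 1 stood well above the other 3 libraries. Either peak of the pair had a higher fold than 77.9% to 96.9% of the peaks of its list.

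**Figure D4:**
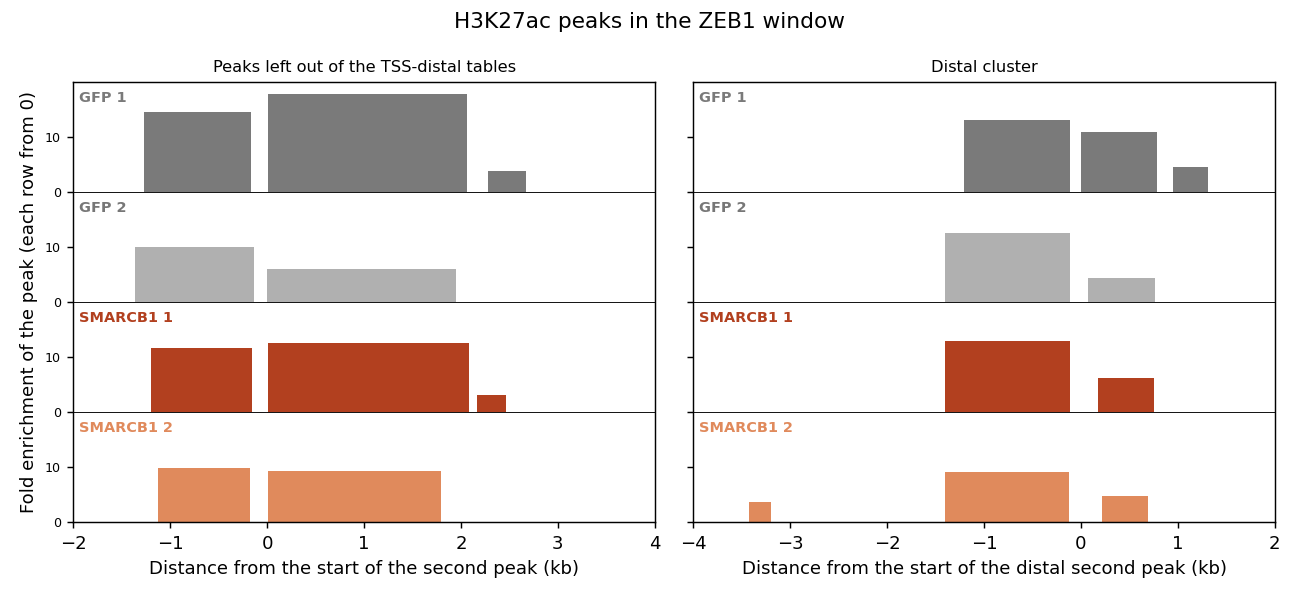
H3K27ac peaks of the ZEB1 window at the pair left out of the TSS-distal tables (left) and at the distal cluster (right). Distance in kb is from the lowest start, among the libraries, of each panel's second peak, and each library's fold enrichment is drawn from 0 in its own row. The gap of the left pair keeps its place in all 4 rows, and the second distal peak is narrower in the SMARCB1 rows.

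The other place was a cluster 281 kb from the pair, near the window's upper edge and inside the TSS-distal tables in each library. Its first peak, chr10:31891159-31892456, had the highest mean fold of the window, 12, with 13.2, 12.6, 13 and 9.21 by library from 56, 61, 76 and 44 fragments. Over the library's background these were 30.8, 16.3, 15.9 and 11.3, lower in both SMARCB1 libraries, though GFP replicate 2 and SMARCB1 replicate 1 were nearly level. Its upper end varied by 10 bp. The second peak, chr10:31892565-31893346, was 782, 693, 583 and 482 bp wide, narrower in both SMARCB1 libraries. Its fold of 11, 4.42, 6.24 and 4.71 overlapped between the groups. The gap between the 2 distal peaks was 108, 184, 282 and 334 bp, wider in both SMARCB1 libraries, whereas the gap of the other pair overlapped between groups. How often gaps in the genome were wider in both SMARCB1 libraries was not computed, so this cannot be called unusual.

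Among the 4 shared ZEB1 regions, fold was separated between the groups in 0, against 40.4% lower and 10.2% higher genome-wide. Covered length was lower in both SMARCB1 libraries in 2, against 28.9% genome-wide. Fragments over the library's background were lower in both in 3, against 46.3%. The remaining peaks of the window were weak. A peak at 31648115 was listed only in SMARCB1 replicate 1 with a fold of 3.22, 2 peaks at 31871046 and 31871728 only in GFP replicate 1, and 1 at 31889138 only in SMARCB1 replicate 2. The Jaccard index was 0.742 between the GFP and 0.776 between the SMARCB1 libraries. It ran from 0.651 to 0.834 between groups, a range that held both values within groups.

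ZEB2, the close paralogue of ZEB1, had a single region shared by the 4 libraries, and nothing else but 1 weak peak. The window held 1, 2, 3 and 1 peaks over 1.76, 1.66, 1.83 and 1.13 kb. The GFP mean was 1.71 ± 0.0742 kb and the SMARCB1 mean 1.48 ± 0.494 kb (SD, n = 2 each), a difference of -0.226 kb (exact two-sided permutation p = 1). SMARCB1 replicates 1 and 2 were the highest and the lowest of the 4 libraries. Of genome windows of 450 kb, 32.3% were covered more and 9.46% less in both SMARCB1 libraries. Without SMARCB1 replicate 2 the difference turned to 0.123 kb. With lists of equal length the values were 1.76, 1.66, 1.58 and 1.13 kb, lower in both SMARCB1 libraries (exact permutation p = 0.333), as in 15.7% of genome windows of 450 kb.

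The shared region was chr2:145088786-145090742, 1957 bp long, and its fold was 14, 9.7, 8.72 and 6.96. The covered length within it was 1760, 1655, 1582 and 1132 bp. Both were lower in both SMARCB1 libraries, with no overlap, as in 19.4% of the genome's regions with peaks in all 4 libraries. Fold alone was lower in 40.4% of them and covered length alone in 28.9%. The summit had 42, 50, 60 and 39 fragments. Over the library's background these were 23.1, 13.4, 12.6 and 10, again lower in both SMARCB1 libraries, as in 46.3% of such regions genome-wide. The local background was 2.08, 4.26, 5.0 and 4.75 fragments, or 1.14, 1.14, 1.22 and 1.22 over the library's background. Fold within the list was higher than 89.4%, 88.8%, 91.3% and 88.7% of peaks, a similar place in every list. These percentiles come from lists of different length.

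The region is by general knowledge of hg19 outside the ZEB2 gene, on its lower-coordinate side, at about the start of QTMAN (older symbol GTDC1), the next gene in RefSeq order on that side. The ZEB2-window values are thus probably those of another gene's promoter. It was left out of the TSS-distal tables in each library, and the tables name no gene for it. The rest of the window, which holds the ZEB2 gene, had no listed peak but one. That peak, chr2:145084696-145084944, was listed in SMARCB1 replicate 1 with a fold of 3.22.

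Apart from that weak peak of SMARCB1 replicate 1, the shared ZEB2-window region stood alone over several megabases. The nearest regions with peaks in all 4 libraries were 5.83 Mb to the lower side and 3.69 Mb to the higher side. By distance to the nearest such region it ranked 4 of 27997, a place reached by 0.014% of them, while the median distance was 0.239 kb. The peak-free intervals to its lower and higher side, chr2:139275456-145084695 and chr2:145090743-148601441, were 5.81 and 3.51 Mb long, the 25th and 86th longest of the genome. The lower interval ended at the weak peak, which lay between that interval and the shared region. The Jaccard index was 0.745 between the GFP and 0.618 between the SMARCB1 libraries, and 0.565 to 0.743 between groups.

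**Figure D5:**
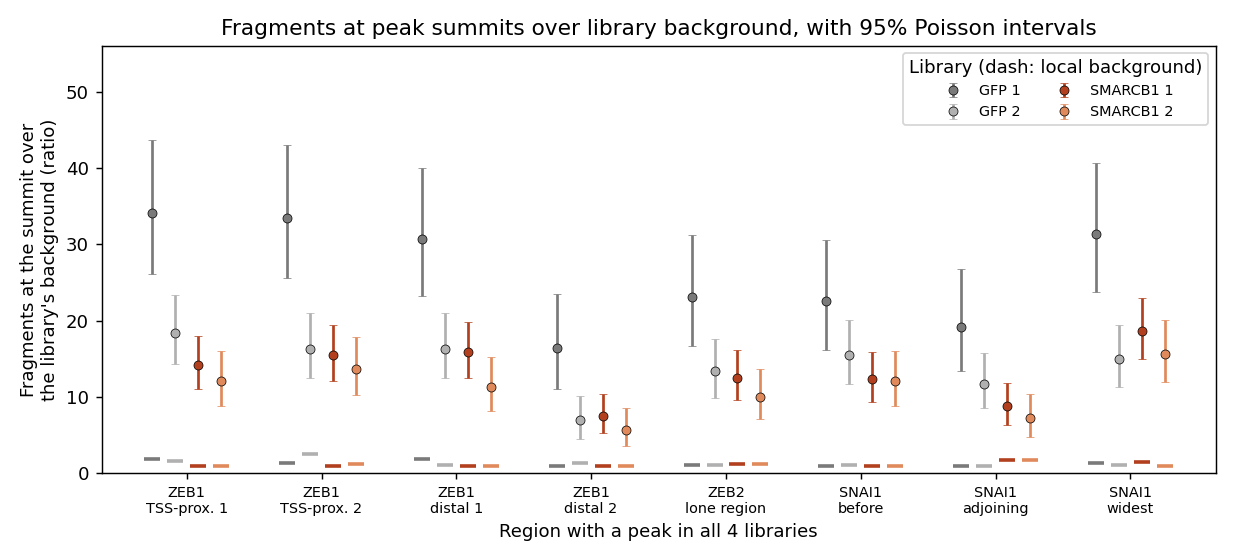
Fragments at the summit of highest fold over the library's background (a ratio) in 8 regions with a peak in all 4 libraries, 1 point per library with its 95% Poisson interval (counting error only), and dashes for the local background on the same scale. GFP replicate 1 is the highest point in each region, and in the adjoining SNAI1 region the points run 19.2, 11.8, 8.79 and 7.2.

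The tables of stitched regions carried the authors' mark for super-enhancers, which are long clusters of acetylated enhancers. The headers name a joining distance of 12.5 kb, but 70.1% to 76.9% of the entries of a table were single peaks, and 55.6% to 62.7% of neighbouring entries lay closer than that distance. In the SNAI1 window 32, 0, 39 and 7 entries were single peaks. The SNAI1 window touched 33, 3, 40 and 10 entries, that of ZEB1 2, 1, 2 and 1, and that of ZEB2 0, 0, 1 and 0. The number marked as super-enhancer was 0 in each window and library, against 3.37%, 3.35%, 5.55% and 5.02% of all entries, so this count does not compare joined clusters alike across libraries. The widest SNAI1 peak lay inside an entry in each library, so being in these tables does not by itself place a peak far from a start.

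The 500 kb on either side of each window were looked at after the results above had been seen. On the lower side of TWIST1 there were 6, 7, 15 and 14 peaks, and on the higher side 1, 1, 2 and 2. Beside SNAI1 the lower side held 34, 22, 79 and 69 peaks and the higher side 223, 188, 199 and 219. Beside ZEB1 the lower side held 3, 2, 5 and 5 and the higher side 14, 17, 43 and 34. SNAI2 had 2 peaks per library on the lower side and 0 on the higher, and both sides of ZEB2 had 0. Counts were thus higher in both SMARCB1 libraries on 5 of the 10 flanks, against 37.7% of genome windows of 500 kb, and lower on 0, against 3.85%.

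With lists of equal length the flank counts were higher in both SMARCB1 libraries on 3 flanks, against 21.5% of genome windows, lower on 1, against 14.8%, and overlapped on 6. The 3 were the lower sides of TWIST1 (4, 7, 8 and 9 peaks), SNAI1 (24, 22, 34 and 38) and ZEB1 (3, 2, 5 and 4). The higher side of ZEB1, with 12, 17, 24 and 17 peaks, then overlapped. The higher side of SNAI1 became lower in both SMARCB1 libraries, with 183, 188, 112 and 148 peaks. Part of the flank differences thus changed once the lists were cut to equal length by p-value. The parts of list length and of depth in these counts were not tested.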

How the data were processed

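The labels' induced gene and antibody target set the groups, and only the 4 H3K27ac libraries were analysed here. Reads were aligned to hg19 (GRCh37) by the authors, with BWA 0.7.12-r1039, SAMtools and bedtools, per the submitters' processing notes. Peaks were called per library with MACS2 and filtered, per the names of the deposited lists; the filter's rule and the control and version of the caller are not given in the sources used here. The deposited fold enrichment is the authors' ratio of summit over background, and the deposited p and q values of a peak are given as −log10. Stitched regions, with deposited locus numbers and super-enhancer marks, came from ROSE with a joining distance of 12.5 kb, per the file headers, though many entries were not joined; 4 columns of other read files were not used.

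Overlap was counted from 1 bp, coordinates are 1-based, and peaks of the 4 libraries were merged. Fragments and background were solved from each peak's fold and −log10 p within 0.001, for 100.0% of peaks (rounded); SMARCB1 replicate 1 needed a fragment scale of 0.855. Covered lengths were compared by exact two-sided permutation over libraries. Background shares came from genome windows of the same length. Within each window the text names the region of highest mean fold, the widest region and up to 3 gained and up to 3 lost ones whose weaker library has the highest fold; other shared regions were chosen after their values were seen, or complete a count, and minor peaks were named likewise. The members, lists and windows were chosen with earlier results of these data known. A planned list of other EMT genes was not run, as no hg19 annotation was used here. The alternatives tried were equal lists, a −log10 q of 5 or more, the strongest 20000 peaks, windows widened by 50 kb, a reciprocal overlap of 50%, joining within 1 kb, the replicate block and leaving out each library. Recovery and region calls were tested on simulated data. Scripts ran in Python 3.11.15 with scipy 1.17.1, pandas 2.3.3, numpy 2.4.6 and, for plots, matplotlib 3.10.9.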

Additional observations from a re-analysis of the deposited data

How the results depend on the processing

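The TWIST1 and SNAI2 windows also had no listed peak when widened, the only alternative that could add one. Covered length, SMARCB1 minus GFP, was 1.78 kb for SNAI1 and turned to -1.42 kb at a −log10 q of at least 5, -4.72 kb with equal lists and -5.99 kb with the strongest 20000 peaks. For ZEB1 it turned from -0.526 to 0.117 kb in the widened window. Leaving out each library gave -2.56 to 6.13 kb for SNAI1, negative without GFP replicate 2 or SMARCB1 replicate 1, -1.04 to -0.014 kb for ZEB1 and -0.576 to 0.123 kb for ZEB2, positive without SMARCB1 replicate 2. The difference in highest fold in the SNAI1 window, SMARCB1 minus GFP, moved from -1.76 to -9.94 in the widened window. It was between -4.46 and 0.93 when a library was left out, positive without GFP replicate 1. The SNAI1 higher-side flank difference turned from 3.5 to -55.5 peaks with equal lists, an alternative added after seeing the data.

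The 4 gained regions became 0 with equal lists, 0 with the strongest 20000 peaks, 10 in widened windows and 2 after joining, and 6 to 21 when a library was left out, with the most without SMARCB1 replicate 2. The 1 lost region became 0 at a −log10 q of at least 5, 2 with 20000 peaks, 3 in widened windows, 4 at a reciprocal overlap of 50% and 0 after joining, and 2 to 15 without a library, with the most without GFP replicate 2. The cause was not tested, beyond fewer peaks or fewer libraries entering. No label ties a replicate number to a shared batch; with the number as a replicate block, the differences stay 1.782, -0.526 and -0.226 kb by construction (exact sign-flip p 0.5, 0.5 and 1, the lowest possible being 0.5). The effect of depth on listing weak peaks was not tested; GFP replicate 1 had the lowest background but a longer list than GFP replicate 2.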
